A study of Ictidomys tridecemlineatus with 31 samples.

Results

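The genes described here are early response genes, most of them coding for transcription factors, in kidneys of the 13-lined ground squirrel, Ictidomys tridecemlineatus, across the states of hibernation. They were chosen by name: Fos, Fosl2, Jun, Junb, Jund, Atf3, Egr1, Nr4a1, Ier2 and Ier3. Of these 10 names, 9 had a row in the deposited table of 12863 genes, and no row had Jund as its symbol. A row named only as containing JUND was not used, since it may not be that gene, and Jund was not analysed here. Ier2 had 2 rows, and the row of higher mean over the animals was used. The family was proposed with results of these data already known, so the adjusted p-values below give the size of a difference against the spread between animals, not independent support.

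RNA was measured in whole kidney fragments of 31 animals in 6 states, of which 4 belong to the hibernation season. In entrance (Ent, n = 5) the body was cooling into torpor, in early arousal (EAr, n = 5) it was still cold, in late arousal (LAr, n = 6) it was partly rewarmed, and in interbout arousal (IBA, n = 5) it was warm again for some hours. The other states were homeothermic: summer active (SA, n = 5), sampled while fattening, and spring dark (SpD, n = 5), sampled after the last torpor bout but still in the hibernaculum. The animals were males and females from a breeding colony or a supplier, and the labels name no drug or genetic change. Each carried an implanted temperature device and was cleared of blood with cold buffer under anesthesia before dissection. Each sample is a separate animal. The libraries came from experiment 1 (9 animals, Illumina TruSeq stranded kit, 3 each of IBA, Ent and SpD) and experiment 2 (22 animals, Nugen UniversalPlus kit, all others), so all EAr, LAr and SA animals are of experiment 2. The LAr animal K113 and the SA animal K137, which stood apart from their groups in the study, are shown apart, and the fits hold the other 29 animals.

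Early response genes are transcribed within minutes of a stimulus, without new protein synthesis, by factors already present in the cell, and their mRNAs are short-lived. FOS and JUN proteins pair through leucine zippers to form AP-1, which binds DNA and activates genes of growth, repair and stress. EGR1 is a zinc finger factor and NR4A1 an orphan nuclear receptor induced by the same kinds of signals. In the mammalian kidney this response is known after a period without blood flow, when flow returns.

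The values are the authors' batch-corrected rlog values, on a log2 scale that draws low counts together, so that 1 unit is a change of about 2-fold, understated for low genes. Medians of the animals lay between 9.74 and 9.88. The correction gave both experiments equal means although they hold different states. On average, experiment 1 animals sat above experiment 2 animals of the same state in most members. The fitted offset was 0.81 ± 0.15 (SE) in Fos, 0.80 ± 0.25 in Egr1 and 0.62 ± 0.13 in Jun, and its cause was not tested. The fit has a common term for it, although the gap differed between states. In Egr1 the means of experiments 1 and 2 were 10.73 and 9.03 in IBA, 9.11 and 9.03 in Ent and 10.37 and 9.72 in SpD. The comparisons of LAr with EAr and with SA lie wholly within experiment 2. Proximal tubule markers were abundant in every state, and their mean over 5 genes lay between 13.40 and 15.34 in the 29 animals. None of the 8 adrenal gland markers had a row.

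Of the 9 measured members, 8 differed across the 6 states (limma, adjusted p under 0.001 over all genes), where 9.34% of all genes did. For 7 of the 9 the fitted level was highest in LAr, and the share of all genes with this order was not computed. Fosl2 did not pass, and Ier3 followed another order. Of the 15 pairs of states 8 were tested, and the other 7, such as LAr with Ent or IBA with EAr, were not. In a whole tissue, more RNA per cell and more cells of a type that holds it cannot be told apart.

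**Figure D1:**
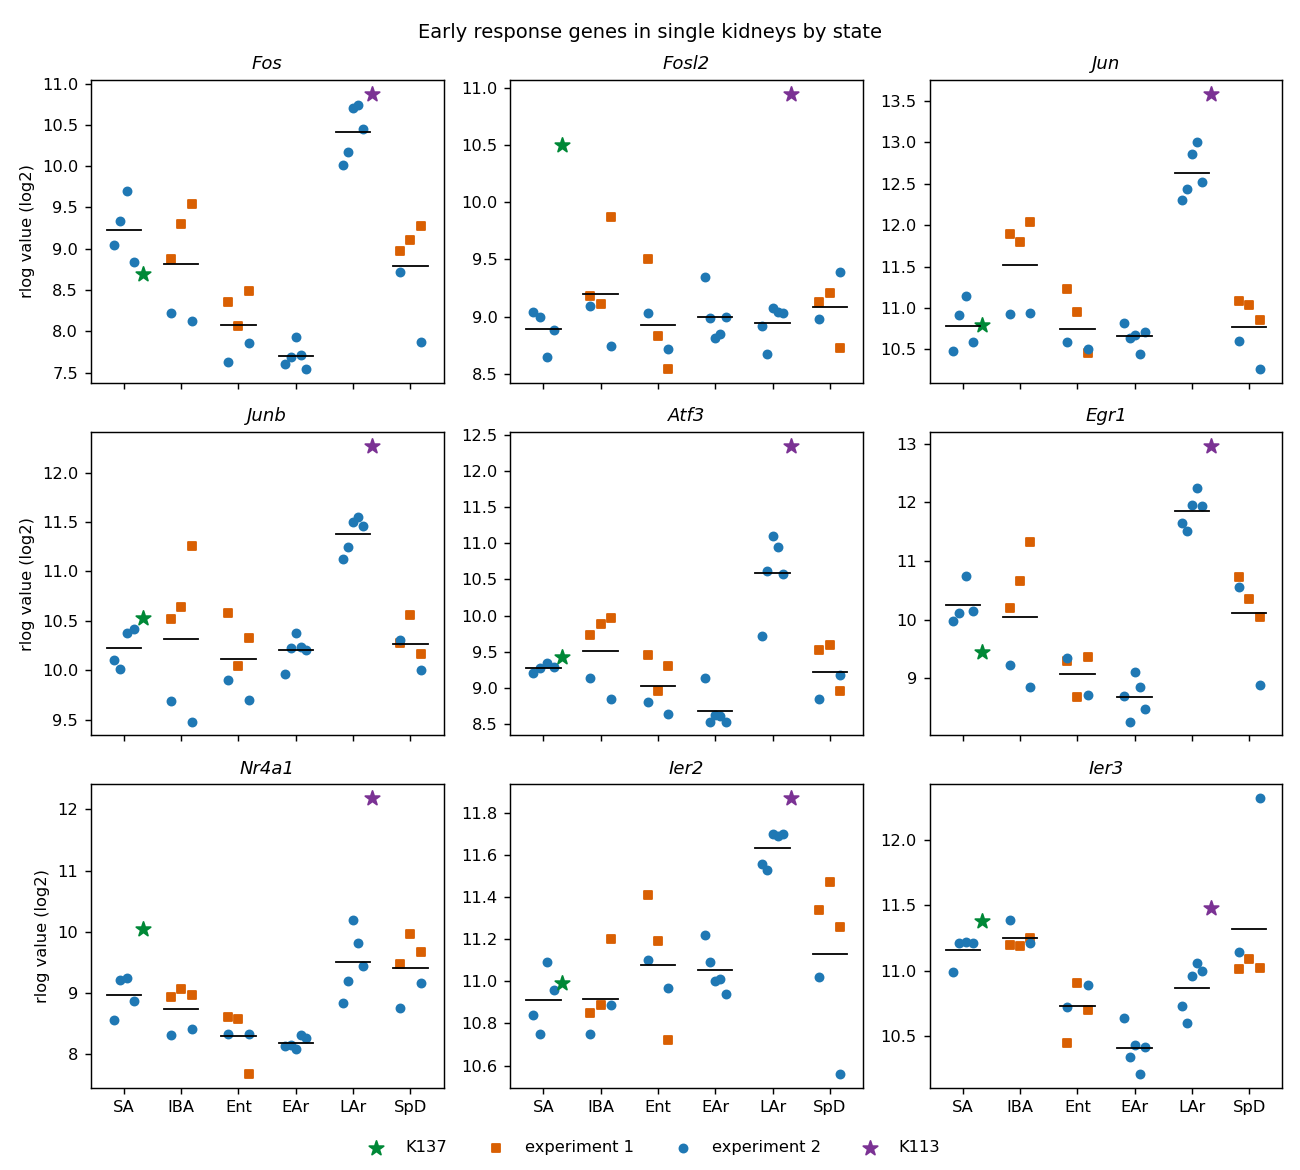
Log2 rlog values of the 9 members in each animal by state (x axis). Squares are experiment 1, circles experiment 2, stars K113 and K137, and the black bar is the mean of the group without these stars. In Fos, Jun, Egr1 and Ier2 all LAr circles lie above every animal of the other states, and the squares of IBA lie above its circles in Fos, Fosl2, Jun, Junb, Atf3, Egr1 and Nr4a1.

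Fos codes for the AP-1 subunit that must pair with a JUN protein to bind DNA. In the 5 EAr kidneys its values were 7.61, 7.69, 7.93, 7.71 and 7.54, and in the 5 LAr kidneys 10.01, 10.17, 10.70, 10.74 and 10.45. Every LAr animal lay above every EAr animal, and also above all 24 animals of the other states. The fitted difference of LAr minus EAr was 2.73 ± 0.18 (SE), a 6.62-fold higher level (adjusted p = 5.0e-10). In the 4 SA kidneys Fos stood at 9.05, 9.34, 9.70 and 8.84, above all EAr and below all LAr animals, and LAr exceeded SA by 1.19 ± 0.19 (adjusted p = 8.1e-05).

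In IBA, the next state sampled after LAr, Fos was lower again. The IBA values were 9.54, 8.88 and 9.30 in experiment 1 and 8.22 and 8.12 in experiment 2, so the animals separated by experiment, and none reached an LAr animal. IBA minus LAr was -2.09 ± 0.20, 4.26-fold lower (adjusted p = 2.8e-07), and -2.21 with experiment 2 alone (adjusted p = 1.3e-04). Ent values were 8.35, 8.06 and 8.49 in experiment 1 and 7.63 and 7.86 in experiment 2, below IBA within either experiment. Ent minus IBA was -0.73 ± 0.18, which did not pass the threshold (adjusted p = 0.00941).

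In SpD, Fos values were 8.97, 9.10 and 9.28 in experiment 1 and 8.72 and 7.87 in experiment 2, the lowest being K130. The fitted order of Fos was LAr at 10.42, SA at 9.23, IBA at 8.33, SpD at 8.30, EAr at 7.69 and Ent at 7.59. Only the step from LAr to SA passed among neighbours in this order that were tested. IBA minus SA was -0.91 ± 0.21 (adjusted p = 0.00344), and SA minus SpD was 0.93 ± 0.21 (adjusted p = 0.0109). The low states could not be separated: EAr minus Ent was 0.10 with a 95% confidence interval from -0.31 to 0.51, and SpD minus IBA was -0.02 with an interval from -0.39 to 0.34.

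Fosl2 codes for FRA2, a FOS relative that lacks the strong activating region of FOS. Its values were 9.35, 8.99, 8.81, 8.85 and 9.0 in EAr and 8.92, 8.67, 9.08, 9.04 and 9.03 in LAr, which overlap. LAr minus EAr was -0.05, with an interval from -0.41 to 0.32, and the test across states gave an adjusted p of 0.741. Fitted levels ran only from 8.85 in Ent to 9.13 in IBA. That interval lies below the whole interval of Fos, from 2.36 to 3.09.

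Jun codes for the AP-1 subunit that can pair with itself or with FOS. Its EAr values were 10.82, 10.64, 10.68, 10.45 and 10.71, and its LAr values were 12.30, 12.44, 12.86, 13.01 and 12.52. The groups did not overlap, and LAr again lay above every animal of the other states. LAr minus EAr was 1.99 ± 0.15, a 3.96-fold higher level (adjusted p = 6.3e-09), and LAr minus SA was 1.85 ± 0.16 (adjusted p = 4.2e-08).

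IBA held the second highest fitted level of Jun, 11.16, where Fos had SA in that place. The IBA values were 11.89, 11.80 and 12.04 in experiment 1 and 10.93 and 10.94 in experiment 2, a clear split by experiment. IBA minus LAr was -1.48 ± 0.17 (adjusted p = 7.8e-06), and -1.69 with experiment 2 alone (adjusted p = 1.7e-04). Ent minus IBA was -0.77 ± 0.15 (adjusted p = 0.00231) and SpD minus IBA -0.75 ± 0.15 (adjusted p = 0.00232). Neither passed, and IBA minus SA, at 0.38 ± 0.18, did not either (adjusted p = 0.129).

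Junb, whose protein pairs with FOS proteins and can restrain JUN, had EAr values of 9.96, 10.23, 10.38, 10.24 and 10.21 and LAr values of 11.13, 11.25, 11.50, 11.55 and 11.46. All LAr animals were above all EAr animals, by 1.19 ± 0.17 in the fit (adjusted p = 1.2e-04). LAr minus SA was 1.16 ± 0.18 (adjusted p = 5.4e-05). IBA minus LAr was -1.44 ± 0.19 (adjusted p = 2.5e-05), although the groups overlapped, since the IBA animal K1 stood at 11.26 and K171 at 9.48. Without K1 and the other experiment 1 animals the difference was -1.78 (adjusted p = 1.1e-05).

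Atf3 codes for a stress-induced partner of JUN that often represses its targets. Its EAr values were 9.13, 8.53, 8.62, 8.61 and 8.53 and its LAr values 9.71, 10.61, 11.10, 10.95 and 10.57. K154 was the highest of EAr and K109 the lowest of LAr, yet the groups did not meet. LAr minus EAr was 1.92 ± 0.19, 3.80-fold (adjusted p = 3.7e-07), and LAr minus SA was 1.32 ± 0.20 (adjusted p = 5.0e-05). IBA minus LAr was -1.42 ± 0.21 (adjusted p = 9.1e-05), with the 3 experiment 1 animals of IBA, at 9.73, 9.88 and 9.97, above K109. With experiment 2 alone the difference was -1.60 and no longer passed (adjusted p = 0.00323).

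Egr1 had the largest difference of the family between the arousal states. Its values were 8.69, 8.26, 9.11, 8.85 and 8.47 in EAr and 11.64, 11.51, 11.95, 12.24 and 11.94 in LAr. The groups lay far apart, and LAr minus EAr was 3.20 ± 0.30, 9.21-fold (adjusted p = 2.2e-07). In SA the values were 9.98, 10.11, 10.74 and 10.14, and LAr exceeded them by 1.62 ± 0.32 (adjusted p = 7.0e-04).

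Egr1 also had the largest residual SD of the fit among the members, 0.51, against 0.19 in Ier2. It did not vary most in every state: in LAr its SD was 0.29, below 0.54 in Atf3 and 0.53 in Nr4a1. IBA values ran from 8.85 in K171 and 9.22 in K104 to 10.20, 10.66 and 11.32 in the experiment 1 animals. IBA minus LAr was -2.28 ± 0.34 (adjusted p = 9.3e-05), and -2.83 with experiment 2 alone (adjusted p = 3.9e-04). Ent minus IBA was -0.97 ± 0.30 in the fit (adjusted p = 0.0350) and did not pass. Within experiment 1 the means were 10.73 in IBA and 9.11 in Ent, while within experiment 2 both states had a mean of 9.03.

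Nr4a1 rose from EAr to LAr with a wide range within LAr. EAr values were 8.14, 8.16, 8.09, 8.31 and 8.27, a narrow range, and LAr values 8.84, 9.19, 10.20, 9.82 and 9.45. The groups did not overlap, and LAr minus EAr was 1.32 ± 0.21, 2.51-fold (adjusted p = 6.5e-04). This call was lost when K113 and K137 were both included (1.77, adjusted p = 0.0113) and with experiment 2 alone (1.32, adjusted p = 0.00214). It was also lost when any of 15 single animals was left out, with an adjusted p of at most 0.00470.

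The LAr values of Nr4a1 overlapped those of SA, IBA and SpD. SpD values reached 9.97, with a fitted level of 9.15 against 9.51 in LAr and 8.97 in SA. LAr minus SA was 0.54 ± 0.22 (adjusted p = 0.0765), IBA minus LAr was -1.02 ± 0.24 (adjusted p = 0.00523) and SpD minus IBA was 0.66 ± 0.21 (adjusted p = 0.0413). None of the 3 passed.

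Ier2 codes for a small nuclear protein induced with the AP-1 genes. Its EAr values were 11.22, 11.09, 11.00, 11.01 and 10.94, and its LAr values 11.56, 11.53, 11.70, 11.69 and 11.70. LAr was above every EAr animal and every animal of the other states, but the difference of 0.58 ± 0.12 did not pass (adjusted p = 0.0135). LAr minus SA was 0.72 ± 0.12 (adjusted p = 1.9e-04) and IBA minus LAr was -0.89 ± 0.13 (adjusted p = 9.3e-05), both past it.

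The other row of Ier2, at a lower level, had EAr values of 8.51, 8.19, 8.51, 8.54 and 8.51 and LAr values of 9.38, 9.44, 9.53, 9.58 and 9.74. There LAr minus EAr was 1.10 ± 0.12 and passed (adjusted p = 1.9e-06). The IBA animal K1 stood at 9.44 in this row, above the LAr animal at 9.38, so LAr did not lie above every animal of the other states. The reads of one gene may be split between these rows, so the size of the Ier2 difference is uncertain.

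Ier3, whose protein acts in cell survival and in signalling by the ERK kinases, had its values in another order. Its IBA values were 11.20, 11.19, 11.25, 11.39 and 11.21, and its LAr values 10.73, 10.60, 10.96, 11.06 and 11.00. Here IBA lay above LAr without overlap, by 0.56 ± 0.17, which did not pass (adjusted p = 0.0241). The lowest mean was that of EAr, with values of 10.64, 10.34, 10.43, 10.21 and 10.42 that overlapped those of LAr and Ent. LAr minus EAr was 0.48 ± 0.15 (adjusted p = 0.266).

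The Ent values of Ier3, between 10.45 and 10.91, lay below all IBA values. Ent minus IBA was -0.52 ± 0.15 (adjusted p = 0.0272), and EAr minus Ent was -0.53 ± 0.17 (adjusted p = 0.387). The fitted order was SpD at 11.51, IBA at 11.44, SA at 11.16, Ent at 10.93, LAr at 10.88 and EAr at 10.40. The test across states passed (adjusted p = 1.8e-04) and none of the 8 tested pairs did. IBA with EAr and SpD with EAr, where the fitted levels lie farthest apart, were not among them. The place of SpD rests partly on K130, which stood at 12.32 where the other SpD animals lay between 11.01 and 11.14. K130 also had the lowest proximal tubule marker mean, 13.40, and its part in the Ier3 value was not tested.

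From EAr to LAr, 6 of the 9 members were called higher (Fos, Jun, Junb, Atf3, Egr1 and Nr4a1), where 0.288% of all genes were, and none lower. In 7 of the 9 every LAr animal lay above every EAr animal, where 3.74% of all genes had this order. In 4 of them (Fos, Jun, Egr1 and the used row of Ier2) every LAr animal lay above all 24 animals of the other states, against 0.187% of all genes. The median difference over the 9 members was 1.32 and over all genes 0.001.

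From LAr to IBA, 6 members were called lower (Fos, Jun, Junb, Atf3, Egr1 and Ier2), where 0.466% of all genes were. The median difference was -1.42 over the members and -0.007 over all genes. This comparison depends on the experiment term, since 3 of the 5 IBA animals are of experiment 1: without the term, Fos alone of the 6 was called, at -1.60 (adjusted p = 7.2e-04). Within experiment 2 the differences of these 6 members lay between -2.83 and -0.84, and 5 of them passed. That fit holds only 2 IBA animals, both female, and the share of all genes it called is not given here.

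Against summer, 6 members were called higher in LAr than in SA (Fos, Jun, Junb, Atf3, Egr1 and Ier2), where 2.79% of all genes were. The median difference was 1.16 over the members and -0.004 over all genes. No measured cell type marker was called between these states, but the ranges of some marker means lay apart. The proximal tubule mean lay between 14.34 and 14.84 in LAr and between 15.01 and 15.34 in SA. The distal tubule and collecting duct mean lay between 12.03 and 12.43 in LAr and between 12.49 and 12.57 in SA. Neither pair of ranges overlapped, while those of the loop of Henle, endothelial, macrophage and blood cell means did. The part of marker levels in the member differences was not tested. These LAr comparisons share the LAr animals, so their values are not independent of each other.

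**Figure D2:**
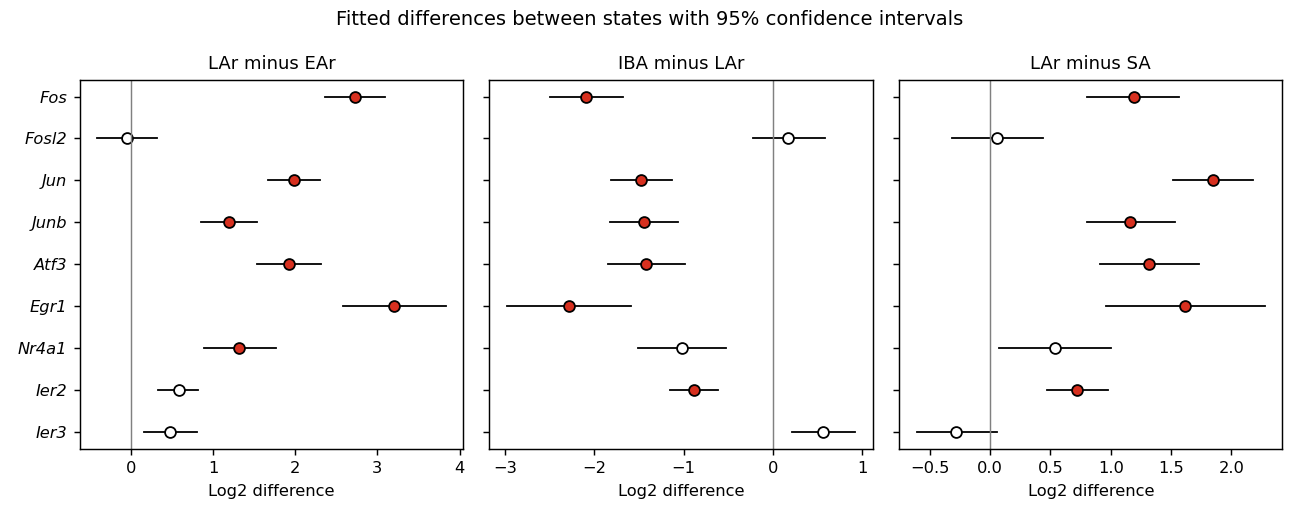
Fitted log2 differences (x axis) of the 9 members for LAr minus EAr, IBA minus LAr and LAr minus SA, with 95% confidence intervals as bars. Filled circles passed an adjusted p under 0.001 in limma and open circles did not. Egr1 and Fos had the largest differences of LAr minus EAr, 3.20 and 2.73, and Fosl2 lay at -0.05.

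In the other 5 tested pairs of states no member was called. The share of all genes called was 0.746% for Ent minus IBA, 0.132% for EAr minus Ent, 3.15% for IBA minus SA, 1.25% for SpD minus IBA and 0.0544% for SA minus SpD. An unadjusted p under 0.05 was reached by 6 of the 9 members for Ent minus IBA, where 29.4% of all genes reached it. In each of the other 4 tested pairs 2 members did, where the share of all genes was 7.16% for EAr minus Ent, 36.3% for IBA minus SA, 26.6% for SpD minus IBA and 29.1% for SA minus SpD. The median member difference of Ent minus IBA was -0.48, against -0.005 over all genes.

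Sex was not used in choosing the genes. No member was called between females and males, where 0.0233% of all genes were, and none reached an unadjusted p under 0.05. The fitted female minus male differences lay between -0.11 in Egr1 and 0.05 in Ier2, and the interval of Egr1 ran from -0.48 to 0.26.

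The 2 animals shown apart differed from their groups in several members. K113 lay above the other 5 LAr animals in 9 of 9 members, where it did so in 35.6% of all genes. In 8 of the 9 it was the highest of all 31 animals, against 11.0% of all genes. Nr4a1 stood at 12.18 in K113, 2.68 above the mean of the other LAr animals, and Fosl2 at 10.95, 2.01 above it. Fosl2 thus had a high value in K113 although the other LAr animals lay between 8.67 and 9.08. Atf3 was 1.76, Egr1 1.11, Jun 0.97 and Junb 0.89 above the mean, whereas Fos, at 10.88, was only 0.47 above it. The mean proximal tubule marker level was 13.60 in K113 and between 14.34 and 14.84 in the other LAr animals. Its endothelial marker mean, 11.09, was above theirs, between 10.53 and 10.92, and its macrophage mean, 7.55, below theirs, between 7.65 and 8.20. The part of these levels in the member values was not tested.

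K137 had a mixed pattern. It lay above the other SA animals in 5 of 9 members, where it did so in 33.9% of all genes, and below them in 2. Fosl2 was at 10.50 in K137 and between 8.65 and 9.04 in the other SA animals, a difference of 1.60 from their mean. Nr4a1 was 1.06 above the mean. Fos and Egr1 were the members below all other SA animals, by 0.54 and 0.80 from the mean, at 8.70 and 9.44. The proximal tubule marker mean was 14.16 in K137 and between 15.01 and 15.34 in the other SA animals. Its endothelial mean was 11.54, against 10.69 to 11.24 in the others, and the part of these levels was not tested.

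**Figure D3:**
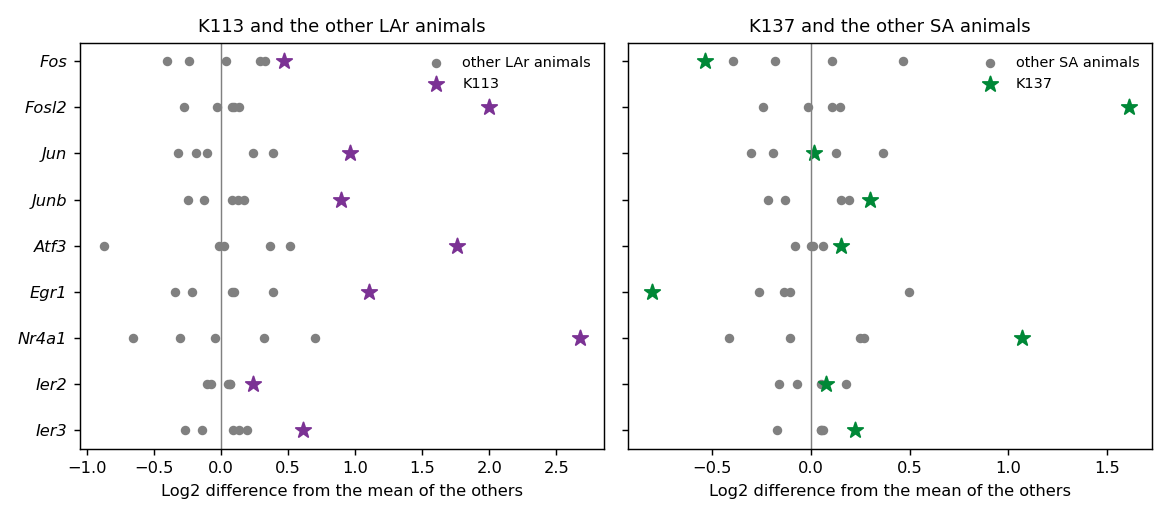
Log2 value of each animal less the average of the fitted animals of its state (x axis) for the 9 members, with LAr on the left and SA on the right. Grey points are the animals of the fit and stars are K113 and K137. K113 lies to the right of all grey points in every member, most in Nr4a1 and Fosl2, and K137 lies to the right in Fosl2 and Nr4a1 and to the left in Fos and Egr1.

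Single animals also stood high or low in many members at once. In IBA, K1 was the highest animal in 7 of the 9 members, where it was the highest of IBA in 25.8% of all genes. In SA, K140 was the highest in 7 of 9, against 25.4% of all genes. In LAr, the lowest values were those of K109 in 5 members and K111 in 4, and the share over all genes was not computed for these animals. Once state, sex and experiment were fitted, K1 lay 1.0 above its fitted Egr1 level and 0.73 above that of Junb, the SpD animal K84 lay 0.96 above in Egr1, and K130 lay 0.81 below.

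The departures from the fit were compared among the members over the 29 animals, as a description, since all members share each animal's library. The 36 pairs had correlations between -0.39 and 0.74, with a median of 0.34, and 4 pairs were below 0. Fos and Egr1 had the highest, 0.74, followed by Junb and Egr1 at 0.71 and Jun and Nr4a1 at 0.68. Ier2 and Ier3 had the lowest, -0.39. Ier3 was in 3 of the 4 pairs below 0, the other partners being Egr1 at -0.28 and Fos at -0.20.

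**Figure D4:**
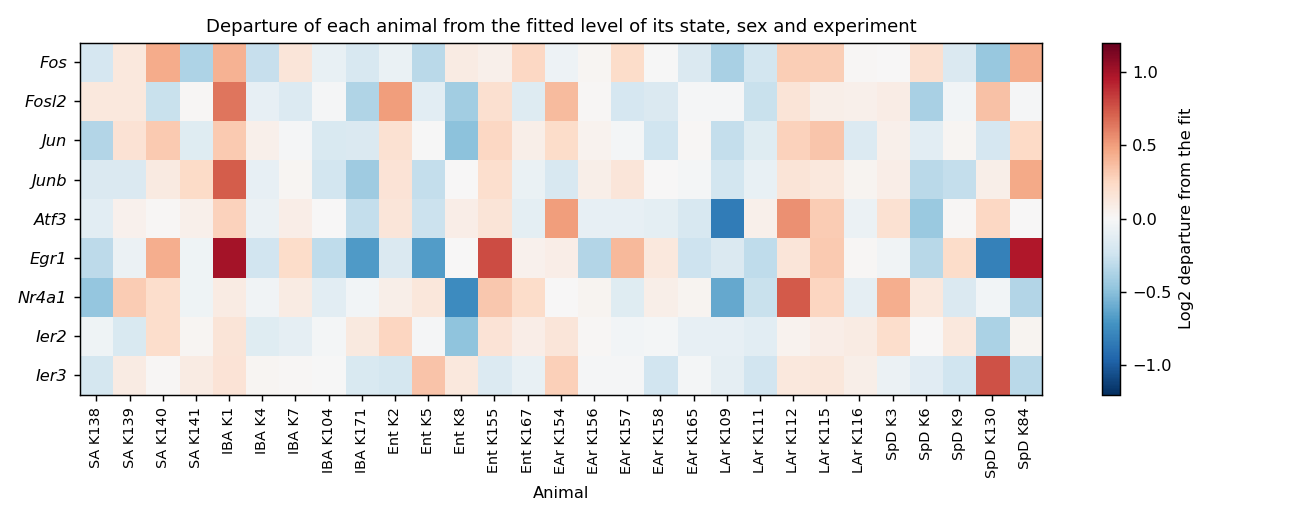
Departure of each of the 29 animals (columns, grouped by state) from the level fitted for its state, sex and experiment, for the 9 members (rows), in log2 units by colour. Red is above and blue below the fit. The column of K1 in IBA is red in every row, and Egr1 runs from red in K1 to blue in K130, at -0.81.

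The genes most like Fos over the 29 animals, by Pearson correlation of the values, were Zfp36 at 0.91, Mocs3 at 0.91, Btg2 at 0.88, Csrnp1 at 0.86 and Otud1 at 0.85. For Egr1 they were Zfp36 at 0.92, Mocs3 at 0.86, Btg2 at 0.85, Cyr61 at 0.85 and Csrnp1 at 0.84. The animals of these correlations share their states and libraries, and no p is given. Zfp36, whose protein destabilizes short-lived mRNAs, had an LAr minus EAr difference of 1.76, and Btg2, an antiproliferative gene, one of 1.60.

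Of the 69 measured genes of 6 related lists, 6 were called higher in LAr than in EAr and none lower, where 0.288% of all genes were called higher. Of 11 other AP-1 family genes 5 were in the table and none was called in the 8 tested pairs of states. Mafg, a small MAF protein gene, had the largest of their LAr minus EAr differences, 0.67 (adjusted p = 0.0137). Fosb, Fosl1, Egr2, Egr3, Nr4a2 and Nr4a3 were among the listed relatives not analysed here. The 4 genes measured in the list of EGR, NR4A and IER genes were Nab1, Nab2, Ier5 and Ier5l, so no other EGR or NR4A gene was tested. Ier5 rose from EAr to LAr by 0.98 ± 0.15 (adjusted p = 4.4e-04), and the others of these 4 were not called in the tested pairs.

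The factors and kinases that act before these genes had small differences. Of 11 genes of SRF, CREB and their partners, which act at the promoters of early response genes, none was called for LAr minus EAr, with a median of -0.02. Srf was lower in Ent than in IBA by 0.43 on the log2 scale (-0.43 ± 0.07, adjusted p = 4.1e-04). Of 17 MAP kinase pathway genes none was called for LAr minus EAr either. Mapk9, which codes for the JUN kinase JNK2, was lower in IBA than in LAr (-0.46 ± 0.07, adjusted p = 1.5e-04) and higher in Ent than in IBA (0.45 ± 0.06, adjusted p = 2.2e-04). These are mRNA levels, and kinase activity was not measured.

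Among 21 measured genes of 23 other early response genes, 4 rose from EAr to LAr: Socs3, a cytokine signalling inhibitor, by 1.33, Myc by 1.31, Csrnp1 by 0.95 and Trib1 by 0.85, and none fell, beside the 0.288% of all genes called higher. The median of the 21 was 0.50. Gadd45g, a growth arrest gene, was lower in IBA than in LAr (-1.86 ± 0.25, adjusted p = 2.7e-05) and higher in LAr than in SA (2.10 ± 0.23, adjusted p = 2.0e-06). Myc was also higher in LAr than in SA (1.37 ± 0.17, adjusted p = 5.1e-06), and Trib1 was lower in Ent than in IBA (-0.76 ± 0.13, adjusted p = 9.7e-04).

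Of 11 measured genes known as targets of AP-1 or EGR1, Hbegf, a growth factor gene of the EGF family, rose from EAr to LAr by 1.12 ± 0.18 (adjusted p = 9.7e-04), and the median of the 11 was 0.00. Tnfrsf12a, the receptor of TWEAK, was highest in IBA: Ent minus IBA was -1.19 ± 0.21 (adjusted p = 8.7e-04) and SpD minus IBA was -1.58 ± 0.21 (adjusted p = 4.1e-05).

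**Figure D5:**
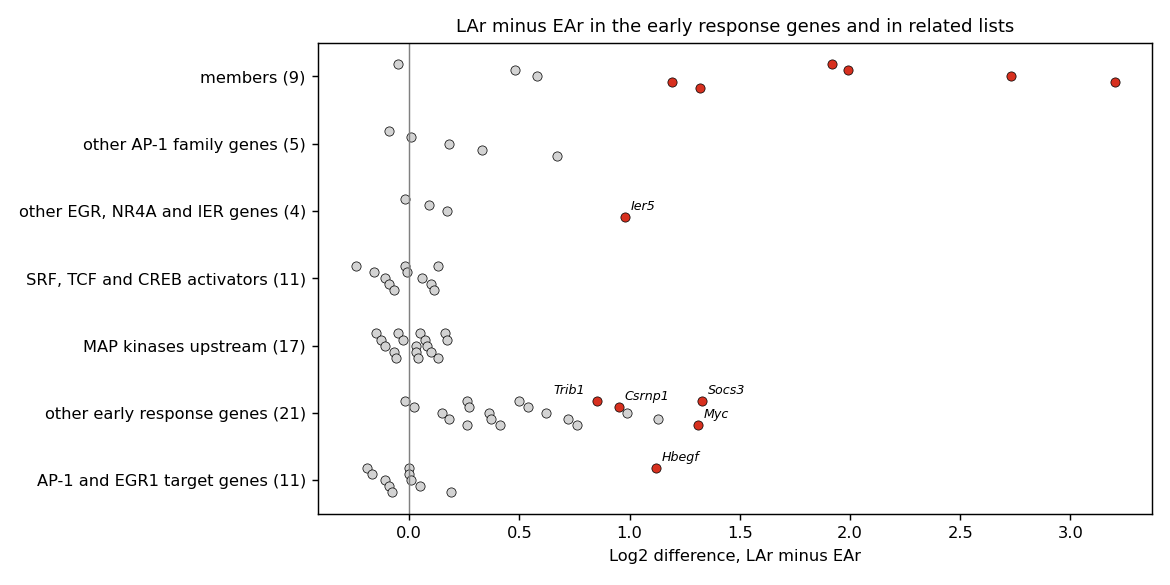
Log2 difference of LAr minus EAr (x axis) for the 9 members and for the measured genes of 6 related lists, with 1 point a gene and the number of genes in brackets. Red points passed an adjusted p under 0.001 in limma, and those of the related lists are named. Egr1, Fos, Jun and Atf3 lie to the right of all genes of the related lists, whose largest value is that of Socs3, 1.33.

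Markers of kidney and other cell types were set beside the members for EAr and LAr. None of the 5 proximal tubule, 2 loop of Henle, 6 distal tubule and collecting duct, 3 endothelial, 3 macrophage or 2 measured blood cell markers was called. Their means overlapped between the states: proximal tubule markers lay between 14.51 and 15.01 in EAr and 14.34 and 14.84 in LAr, and macrophage markers between 7.85 and 8.32 in EAr and 7.65 and 8.20 in LAr. Endothelial markers lay between 10.63 and 10.89 in EAr and between 10.53 and 10.92 in LAr. The blood cell markers had the widest ranges, from 9.21 to 9.84 in EAr and from 8.27 to 10.29 in LAr.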

How the data were processed

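The kidney RNA of the 31 animals analysed here was sequenced from poly(A)-selected libraries. The authors used cutadapt for trimming and hisat2 to take out mitochondrial reads. Salmon, run against the transcripts of HiC_Itri_2, and tximport gave gene estimates, which the authors turned into rlog values in DESeq2. They kept genes that reached a set rlog level in most animals of some group, and took out the effect of experiment in limma. The deposited values are these batch-corrected rlog values on the log2 scale. The table gives no counts, so depth is unknown. Each sample is a separate animal, so the errors hold differences between animals together with those of library and tissue piece.

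The values of 29 animals were fitted with limma 3.58.1 in R 4.3.3, on state, sex and experiment, with variances moderated along an intensity trend and Benjamini-Hochberg adjustment over 12863 genes within each comparison. The threshold was an adjusted p under 0.001, as in the study, whose own test ran on counts not used here. The batch correction had removed the mean difference between experiments, and the experiment term of this fit counts a degree of freedom for it. The term also changes the fitted differences between states that hold unequal shares of the experiments. For IBA minus LAr, Fos was -2.09 with the term and -1.60 without it, and Egr1 was -2.28 and -1.81. For LAr minus EAr, Fos was 2.73 with the term and 2.74 without it. The alternative without that term does not count the degree of freedom. The script was tested on simulated data. Figures were drawn with matplotlib.

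Members were found by symbol, and all 10 symbols are in the RefSeq gene table. The members and the related lists were chosen with earlier results of these data known. All measured members are named. A result of 1 listed gene is not reported here. From each list at most 4 called genes per comparison are named, those of largest difference, beside the 5 genes most like Fos and the 5 most like Egr1. Mafg, Zfp36 and Btg2 were given further values after those were seen. Alternatives were all 31 animals, experiment 2 alone, no experiment term, only genes averaging 8 or more, median centring, a threshold of 0.01 and leaving out each animal.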

Additional observations from a re-analysis of the deposited data

Results flagged for a closer look

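In 6 groups of values 1 animal stood apart from the others of its state by more than Dixon's 95% critical value. Among the 54 groups tested in the 29 animals there were 3, where chance gives about 1 in 20. Atf3 in EAr was 9.13 in K154, with the next animal at 8.62. Ier3 in SA was 10.99 in K138, below the next at 11.21, and Ier3 in SpD was 12.32 in K130, above the next at 11.14. The proximal tubule marker mean of K130, 13.40, was the lowest and its loop of Henle mean, 16.53, the highest of the SpD animals, and their part in the Ier3 value was not tested.

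Among the 18 groups tested with K113 and K137 included there were also 3. Fosl2 in SA was 10.50 in K137, above the next at 9.04. Fosl2 in LAr was 10.95 in K113, above the next at 9.08, and Junb in LAr was 12.27 in K113, above the next at 11.55.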

How the results depend on the processing

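Of 18 member differences called, all kept their direction under every alternative run. All 18 also stayed past the threshold with median centring, with genes of a mean of at least 8 and at 0.01, 17 did with all 31 animals, 16 with experiment 2 alone and 9 without the experiment term. Without that term 1 member in place of 6 was called for IBA minus LAr. At an adjusted p under 0.01, 2 members were called for Ent minus IBA, 1 for IBA minus SA and 1 for SpD minus IBA, where none was at 0.001. The share of all genes called at 0.01 is not given here, so these counts cannot be read as particular to the members. Leaving out each animal gave 0 to 1 members for SpD minus IBA (1, Jun, without the Ent animal K8) and 0 to 1 for Ent minus IBA (1, Ier3, without the SpD animal K130). It cost Nr4a1 its LAr minus EAr call in 15 cases, Egr1 its LAr minus SA call in 8 (adjusted p up to 0.00402), Ier2 its LAr minus SA call without K138 or K139 (up to 0.00173) and Egr1 its IBA minus LAr call without K104 (0.00118). The cause of these losses was not tested.

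Some differences near 0 that were not called changed sign. Fosl2 LAr minus EAr was 0.29 with all 31 animals and -0.10 to 0.06 with animals left out. Fos EAr minus Ent was -0.06 with experiment 2 alone and -0.40 without the experiment term, and Fos SpD minus IBA was 0.08 with experiment 2 alone and -0.15 to 0.12 with animals left out. Egr1 Ent minus IBA, -0.97 in the fit of 29 animals and not called, was 0.00 with experiment 2 alone. No paired analysis was possible because the states share no animal number.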
